A study of Mus musculus with 24 samples.

Results

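Denervation of MuRF1 knockout muscle at day 3 was described from 6 of the 24 arrays of the study, 3 of denervated and 3 of control muscle. The 11317 genes tested had a probe detected on at least 3 of the 24 arrays, which need not be among these 6. All 6 samples came from triceps surae, the calf muscle group, of C57/Bl6 mice aged 6 months that lacked MuRF1. The denervated samples were taken 3 days after resection of the sciatic nerve of 1 leg. The controls were littermates kept alongside with no operation, so nerve loss and the surgery itself cannot be told apart. Total RNA was read on 1-colour Illumina BeadChips. The other groups used here for comparison were wild type mice at day 3 and MuRF1 knockout mice at day 14, each with 3 denervated and 3 control samples of the same strain, age and muscle. The labels describe the knockout as MuRF1 knockout only and do not give the design of the allele. They also leave it unsaid whether each of the 3 samples comes from its own mouse; p-values here thus reflect only how much these samples vary, and that variation may be technical.

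MuRF1, the product of Trim63, is a RING-finger ubiquitin ligase of the sarcomere and is known as a marker of muscle atrophy. When a muscle loses its nerve, fibres fall silent, acetylcholine receptor genes that are normally transcribed only under the synapse become active along the whole fibre, and the muscle starts to lose mass. The class II deacetylase Hdac4, myogenin and the receptor kinase MuSK belong to the pathway known to link lost activity to that response, and FoxO factors, the proteasome and autophagy are known to carry much of the protein breakdown.

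Trim63 itself was at background on all 6 arrays. Its normalised log2 levels were 5.04, 4.83 and 5.15 in the controls and 5.30, 5.33 and 5.14 in the denervated samples, and no array of either group detected the probe, so no fold is given. In wild type muscle its change was 1.59 ± 0.17 (SE), adjusted p = 1.82e-07. The interaction of genotype and denervation for Trim63 was -1.34 ± 0.24 (SE), adjusted p = 0.00865. The labels do not say which part of the gene the allele removes, so the place of the probe relative to it is not known. The muscle label was checked with 12 markers of mature fibres, of which 0 rose and 3 fell. Their summed linear level was 378300, 363600 and 413500 in the controls and 345400, 369500 and 405600 in denervated replicates 1, 2 and 3, and the groups overlapped. Median centring over the probes kept, an alternative scaling, put 9 of the 12 lower and none higher. In bulk muscle, fewer cells of a type and less RNA per cell cannot be told apart.

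Denervation changed 4055 of 11317 genes (35.8%) at a Benjamini-Hochberg adjusted p under 0.05 in limma's linear model, 2290 higher (20.2%) and 1765 lower (15.6%). The counts of gene lists given below are to be read against these shares. Of these, 1110 (9.81% of the genes tested) changed at least 2-fold, 623 upward and 487 downward. Over all genes the standard error of the log2 change had a median of 0.19. The 3 denervated values did not overlap the 3 control values in 4312 genes (38.1%), which included 3462 of the 4055. Where no array of the dimmer group detected the probe, the fold is a bound and is written as at least N-fold, computed against the dimmest detected signal of each array or the probe's own signal if higher; this held for 368 of the called genes. A further 6 called genes were undetected on every array of both groups. The split by direction depended on the scaling. Median centring over all probes gave 5361 higher and 538 lower, and moved the median change of all genes from 0.04 to 0.45. Median centring over the probes kept gave 2144 higher and 2747 lower, with a median of -0.11. Changes near those shifts therefore have no settled direction.

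Denervated replicates 2 and 3 stood apart from the other day 3 arrays in the number of probes detected. They detected 18434 and 18520 of 46632 probes, against 17055 in denervated replicate 1 and 15532, 15724 and 16718 in the controls. On the second principal component of all 24 arrays, which held 19.2% of the variance, denervated replicates 1, 2 and 3 lay at 31.6, 10.8 and 1.22 and the controls at 18.5, 30.8 and 6.33. Within the denervated group the arrays correlated across genes at 0.9796 to 0.9895, and within the controls at 0.9741 to 0.9842. Denervated replicate 1 alone moved in the called direction in 4029 of the 4055 called genes. The 26 exceptions were 18 called higher and 8 called lower, and none of them changed 2-fold. Replicate 1 and the same controls also entered the calls, so part of this agreement was built in. The same holds for the overlap with the next fit. With denervated replicates 2 and 3 left out, replicate 1 against the 3 controls, with the spread taken from the other groups, gave 1933 calls (17.1%), 1094 higher and 839 lower. Of those, 1763 were called in the same direction with all 3 denervated samples and 0 in the opposite one. Of the 1110 genes changed at least 2-fold, 885 kept their call. The part of the probe number in any single result was not tested beyond these fits and the one next. With that number as a covariate 1671 genes were called, 945 higher and 726 lower, and of the 54 gene lists described here 44 had fewer calls, 6 as many and 4 more.

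**Figure D1:**
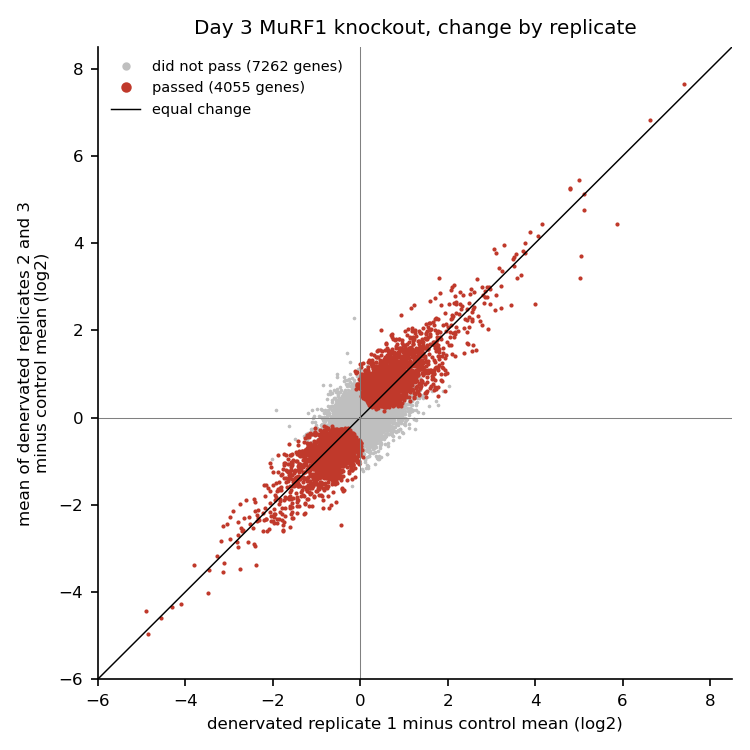
Change of each of 11317 genes in denervated replicate 1 (x axis) and in the mean of denervated replicates 2 and 3 (y axis), both minus the mean of the 3 controls on the log2 scale; red points are the 4055 genes that passed the test. For 4029 of the 4055 red points replicate 1 has the sign of the change fitted from all 3 denervated samples, which includes replicate 1.

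The largest rises were led by Chrng, Ankrd1 and Rrad. The largest rises and falls were ranked only among called genes whose groups did not overlap, so their separation was a condition of the choice. Chrng, which encodes the gamma subunit of the fetal receptor, had log2 levels of 5.0, 4.70 and 4.88 in the controls and 12.28, 12.58 and 12.46 in the denervated samples. All 3 denervated samples lay far above the controls, which did not detect the probe. The rise was at least 98.3-fold, with a fitted log2 change of 7.58 ± 0.20 (SE), adjusted p = 1.18e-16. Ankrd1, a titin-binding protein induced by mechanical stress, had levels of 7.65, 7.40 and 7.59 in the controls and 14.18, 14.20 and 14.55 in the denervated samples. It rose 108-fold (6.76 ± 0.16 (SE), adjusted p = 1.79e-17), with no overlap of the groups. Rrad, a small GTPase known to inhibit L-type calcium channels, had levels of 4.89, 7.05 and 6.08 in the controls and 11.01, 11.45 and 11.44 in the denervated samples and rose 39.3-fold; its controls were spread over more than 2 log2 units, yet all lay below the denervated samples.

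Runx1, a transcription factor induced by denervation, rose at least 23.4-fold from undetected controls (5.11 ± 0.20 (SE), adjusted p = 4.36e-14), with denervated levels of 10.05, 10.38 and 10.66. Chrna9, an acetylcholine receptor subunit best known from inner ear hair cells, rose 34.2-fold (5.10 ± 0.29 (SE), adjusted p = 4.33e-11). Its levels were 6.72, 6.18 and 6.66 in the controls and 11.31, 11.96 and 11.57 in the denervated samples. Cd82, a membrane tetraspanin, rose 13.8-fold (3.79 ± 0.11 (SE), adjusted p = 7.61e-16) and had the tightest groups of the 15 largest rises by standard error. Ttyh1, a membrane protein, rose at least 24-fold, Zfp593, a zinc-finger gene that lies close to Trim63 on the same chromosome, at least 24.6-fold, Gdf5, a ligand of the bone morphogenetic protein family, at least 13.7-fold, and Olig1, a basic helix-loop-helix factor, at least 8.46-fold; in each the controls were undetected and the denervated values did not overlap them. Of 19 measured neighbours of Trim63, 5 rose and 3 fell (10 higher and 2 lower with median centring over all probes). Their shares of 26.3% and 15.8% were near the 20.2% and 15.6% of all genes. The acute-phase gene Orm2 rose at least 9.02-fold and Slpi, a secreted protease inhibitor, at least 7.49-fold. For both, denervated replicate 1 was the highest: Orm2 stood at 9.90, 8.89 and 8.19 and Slpi at 9.93, 8.83 and 7.41.

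The largest falls were led by Smco1, Rsph1 and Perm1. Smco1, a muscle membrane protein of little known function, had levels of 11.45, 11.14 and 11.52 in the controls and 6.51, 6.07 and 6.75 in the denervated samples and fell 30.4-fold (-4.93 ± 0.15 (SE), adjusted p = 1.22e-15). Perm1, a muscle regulator downstream of PGC-1 and ERR, had levels of 12.66, 12.36 and 12.67 in the controls and 8.01, 7.77 and 8.17 in the denervated samples. All 3 denervated samples lay more than 4 log2 units below every control, and the fall was 24-fold (-4.58 ± 0.18 (SE), adjusted p = 4.53e-14). Mettl21c, a lysine methyltransferase of muscle, fell 14.4-fold, Dhrs7c, a dehydrogenase of the sarcoplasmic reticulum, 10.7-fold, and Aqp4, the water channel of fast fibres, 11.5-fold. Map2k6, the kinase that activates p38, fell 11.2-fold and Fn3k, which deglycates proteins, 9.66-fold. The secreted factors Fgf6 and Il15 fell 7.71-fold and 7.49-fold. Cntnap2, a neurexin-family gene known from myelinated axons, fell at least 14.2-fold to undetected in all 3 denervated samples. Rsph1, Emid1, Riiad1 and Mlf1 fell 24.2-fold, 20.2-fold, 9.36-fold and 9.28-fold. Arrdc2, an arrestin-domain gene, fell 8.31-fold with the widest control group of these 15, 10.72, 8.47 and 11.39. Other kept probes gave smaller log2 changes for several of these genes, -1.86 for Emid1, -0.94 for Cntnap2, -0.93, -0.15 and -1.10 for Aqp4, and 0.79 for Runx1 and 1.01 for Zfp593 among the rises. The other probes of Fn3k and Il15 were at -0.40 and -0.62 and did not pass. Each of these 15 falls and of the 15 largest rises also passed with denervated replicates 2 and 3 left out (adjusted p up to 0.0305).

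**Figure D2:**
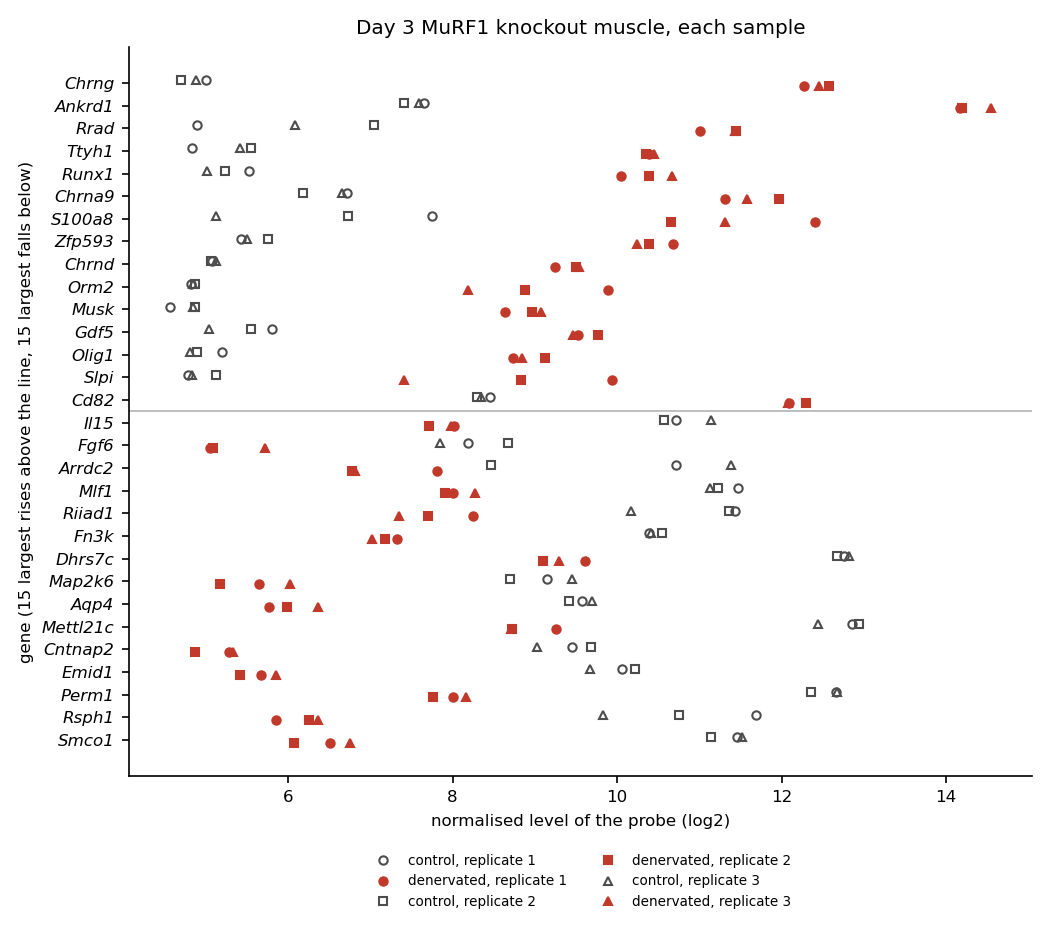
Normalised log2 level of the probe of each gene in every day 3 knockout sample, for the 15 largest rises (above the line) and the 15 largest falls (below it); open grey symbols are controls, filled red symbols denervated samples, and the symbol shape gives the replicate number. Absence of overlap between control and denervated samples was a condition for choosing the 30 genes. Slpi, Orm2, S100a8 and the controls of Rrad and Arrdc2 are the most spread.

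Most of the acetylcholine receptor subunits measured rose. Of 8 measured subunit genes 5 rose, 1 fell and 2 did not pass, and the median change was 2.10 on the log2 scale, against 0.04 over all genes. Chrnd, the delta subunit, was undetected in the controls at 5.07, 5.06 and 5.12 and stood at 9.25, 9.51 and 9.54 after denervation, a rise of at least 12.2-fold (4.35 ± 0.15 (SE), adjusted p = 9.26e-15). Chrnb1, the beta subunit, rose 5.55-fold (2.47 ± 0.15 (SE), adjusted p = 1.12e-10), and Chrna1, which carries the main ligand-binding site, at least 2.05-fold (1.72 ± 0.20 (SE), adjusted p = 7.77e-07). Chrne, the epsilon subunit that replaces gamma in the adult receptor, went the other way. Its levels were 8.94, 8.57 and 8.81 in the controls and 6.97, 6.40 and 6.69 in the denervated samples, with no overlap, a fall of 4.23-fold (-2.08 ± 0.18 (SE), adjusted p = 1.70e-08). The counts of 5 rises and 1 fall held with replicates 2 and 3 left out and under both median centrings. Other kept probes of Chrng, Chrnd and Musk rose by smaller amounts, of 0.91 for Chrng, 1.81 and 2.10 for Chrnd and 1.72 for Musk on the log2 scale.

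The promoters of these genes are shown because the myogenic factors described next are known to bind E-boxes in them. Windows of 300 bases, from 250 before to 50 after the annotated start, came from RefSeq (mouse build GRCm38.p6) and were matched by Entrez ID. A gene could have up to 26 windows, and only the first listed was used. Both strands were searched for CANNTG and for the more specific CAGCTG, which is contained in it. Chrng at chr1:87205561-87205860 (plus strand) held 3 CANNTG matches, 2 of them CAGCTG. Chrna1 at chr2:73580289-73580588 (minus strand) held 3 and 2, Musk at chr4:58285712-58286011 (plus strand) 3 and 1, and Chrne at chr11:70619145-70619444 (minus strand) 1 and 1. The windows run 5′ to 3′ on the gene's strand, with every match in capitals.
Chrng: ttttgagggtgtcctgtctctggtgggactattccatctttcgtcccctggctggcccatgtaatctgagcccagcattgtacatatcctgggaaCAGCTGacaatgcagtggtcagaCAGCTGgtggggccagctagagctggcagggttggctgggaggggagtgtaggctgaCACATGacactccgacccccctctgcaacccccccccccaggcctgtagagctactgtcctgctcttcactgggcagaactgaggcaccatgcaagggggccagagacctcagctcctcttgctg
Chrna1: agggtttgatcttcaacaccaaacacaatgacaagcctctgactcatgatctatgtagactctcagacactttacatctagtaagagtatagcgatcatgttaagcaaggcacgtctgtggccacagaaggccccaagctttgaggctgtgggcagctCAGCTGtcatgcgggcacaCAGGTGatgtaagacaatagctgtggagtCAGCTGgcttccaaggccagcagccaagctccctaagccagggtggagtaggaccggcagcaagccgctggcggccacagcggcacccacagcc
Musk: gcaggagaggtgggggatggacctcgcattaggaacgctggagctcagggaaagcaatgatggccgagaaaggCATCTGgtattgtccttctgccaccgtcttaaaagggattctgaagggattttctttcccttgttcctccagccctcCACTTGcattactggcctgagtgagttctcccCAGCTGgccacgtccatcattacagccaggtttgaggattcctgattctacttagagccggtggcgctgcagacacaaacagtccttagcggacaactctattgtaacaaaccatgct
Chrne: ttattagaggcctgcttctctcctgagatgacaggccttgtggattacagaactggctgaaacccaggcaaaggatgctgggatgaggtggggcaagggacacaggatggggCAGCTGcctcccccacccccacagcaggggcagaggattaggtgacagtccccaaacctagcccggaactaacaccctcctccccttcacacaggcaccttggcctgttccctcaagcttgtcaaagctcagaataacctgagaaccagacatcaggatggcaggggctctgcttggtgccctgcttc

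CANNTG was present in all 6 receptor subunit windows available and CAGCTG in 5 of 6. Over 27025 promoters of the same length the shares were 72.1% and 16.1%, and over the 9137 tested genes with a window 64.8% and 15.4%. Chrne, which fell, held the CAGCTG letters as well, so their presence did not separate the subunit that fell from those that rose. A match of letters is a description and not a bound site.

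Of the MuSK pathway and the synaptic scaffold, 5 rose and 2 fell of 14 measured, with a median of 0.02. Musk, the receptor kinase that organises the postsynaptic membrane, had levels of 4.57, 4.87 and 4.84 in the controls and 8.63, 8.96 and 9.08 in the denervated samples. It rose at least 8.42-fold (4.13 ± 0.15 (SE), adjusted p = 1.86e-14), with every denervated sample above the undetected controls. Lrp4, the agrin receptor partnered with MuSK, was 0.51 (adjusted p = 0.0183), and Dok7, its cytoplasmic activator, 0.74. Rapsn, the receptor-clustering protein, was 0.49. Lamb2, a laminin chain of the synaptic cleft, was -0.89. With denervated replicates 2 and 3 left out, Dok7, Rapsn and Lamb2 did not pass (adjusted p = 0.274, 0.218 and 0.0654), and the list stood at 3 higher and 1 lower. Dok7 also missed the threshold without control replicate 1, control replicate 2 or denervated replicate 3 alone (adjusted p = 0.0551 to 0.0885). Rapsn also missed the threshold without control replicate 1, control replicate 2 or denervated replicate 3 alone (adjusted p = 0.0699 to 0.109). The other Rapsn probe, at 0.27, and the mean of its probes did not pass (adjusted p = 0.341 and 0.0671). Lrp4 also missed the threshold without control replicate 3 or denervated replicate 1 alone (adjusted p = 0.0774 to 0.0955). With median centring over all probes it stood at 8 higher and 0 lower.

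Myogenic factors rose without any fall: 5 of 15 measured passed, all higher (11 higher and 0 lower with median centring over all probes, 4 higher and 1 lower with the covariate), and the same number did with replicates 2 and 3 left out. Myog, which encodes myogenin and activates receptor genes in silent fibres, was undetected in the controls at 5.09, 5.34 and 5.19 and stood at 8.29, 7.43 and 7.91 after denervation. It rose at least 4.18-fold (2.67 ± 0.26 (SE), adjusted p = 1.02e-07). Myod1, the muscle determination factor, rose at least 4.60-fold (3.34 ± 0.17 (SE), adjusted p = 4.08e-12). Myf6, the factor most abundant in adult muscle, rose 4.65-fold from levels that were already detected, 12.26, 11.95 and 12.35. Six4, a homeodomain partner of these factors, rose at least 2.07-fold. The class II deacetylase Hdac4 rose 3.39-fold (1.76 ± 0.22 (SE), adjusted p = 2.51e-06), and the deacetylase list, which also holds Runx1, stood at 3 higher and 2 lower of 9 (6 higher and 1 lower with median centring over all probes). Its relative Hdac5 was -0.59, with another probe at -0.62 that did not pass, and did not pass with replicates 2 and 3 left out (adjusted p = 0.0890).

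Surface genes known from denervated fibres and growing nerve moved both ways, 9 higher and 5 lower of 16. Ncam1, the neural cell adhesion molecule, rose 7.02-fold (2.81 ± 0.17 (SE), adjusted p = 6.68e-11). Its other kept probes were at 1.35, 0.77 and -0.02, so the size of the rise depended on the probe. Cdh15, the muscle cadherin, rose 2.67-fold, Gap43, a growth-cone protein, at least 1.41-fold, and Peg3, an imprinted zinc-finger gene, 2.98-fold. The other Peg3 probe was at 0.45 and did not pass. Sema6c, a transmembrane semaphorin of muscle, fell 5.69-fold (-2.51 ± 0.19 (SE), adjusted p = 1.75e-09).

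Of the ubiquitin ligases of muscle, 6 rose and 3 fell of 20 measured (12 higher and 1 lower with median centring over all probes, 0 higher and 2 lower with the covariate), with a median of 0.25. These shares, 30% and 15%, stood against 20.2% and 15.6% of all genes. Fbxo32, which encodes atrogin-1 and is the other ligase commonly used beside MuRF1 as an atrophy marker, had levels of 10.62, 10.78 and 11.29 in the controls and 11.60, 11.57 and 11.96 in the denervated samples. The groups did not overlap, and the rise of 1.76-fold (0.81 ± 0.28 (SE), adjusted p = 0.0278) did not pass with replicates 2 and 3 left out (adjusted p = 0.274). Fbxo32 also missed the threshold without control replicate 1, control replicate 2 or denervated replicate 3 alone (adjusted p = 0.0789 to 0.112). Its other probe, at 0.71, and the mean of its probes did not pass either (adjusted p = 0.118 and 0.0519). Klhl40, a substrate adaptor of the sarcomere, rose 2.02-fold and Fbxo31 1.81-fold. Wwp1, a HECT-domain ligase, fell 3.96-fold (-1.99 ± 0.23 (SE), adjusted p = 9.26e-07), and its other kept probes stood at -0.87, which passed, and -0.58, which did not. Ube3a fell 1.73-fold, with another probe at -0.57 that did not pass. With replicates 2 and 3 left out the list stood at 2 higher and 3 lower.

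Most subunits of the standard 26S proteasome rose, 16 of 17 in the regulatory particle and 8 of 13 in the core. In the 19S regulatory particle none fell and 1 did not pass, with a median change of 0.89. Psmd11, a subunit of the lid, had levels of 5.91, 5.95 and 5.69 in the controls and 7.39, 7.35 and 7.97 in the denervated samples and rose 3.29-fold (1.72 ± 0.27 (SE), adjusted p = 4.56e-05). Psmd8 rose 2.74-fold (1.45 ± 0.10 (SE), adjusted p = 9.83e-10), with the groups apart. In the 20S core none fell and 5 did not pass, with a median of 0.39. Psma5 had the largest fitted change in the core, 1.10, but its controls were undetected and the rise was at least 1.11-fold. With median centring over the probes kept, 14 regulatory subunits were higher and none was lower, but the core stood at 2 higher and 1 lower. With the covariate 7 regulatory and 6 core subunits were higher and none was lower. With replicates 2 and 3 left out the 2 lists held 9 and 6 rises.

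Among assembly factors, alternative activators and transcriptional regulators of the proteasome, a list that also holds the immunoproteasome, 3 rose and 2 fell of 16 measured (9 higher and 1 lower with median centring over all probes). The shares were 18.8% and 12.5%, near the 20.2% and 15.6% of all genes. Nfe2l2, which encodes the oxidative stress factor NRF2, rose 2.47-fold (1.30 ± 0.19 (SE), adjusted p = 2.28e-05). Psme1, part of the interferon-induced activator, fell 1.93-fold (-0.95 ± 0.17 (SE), adjusted p = 1.31e-04) and Psmb10, a catalytic subunit of the immunoproteasome, fell 1.94-fold; Psmb10 did not pass with replicates 2 and 3 left out (adjusted p = 0.330). Of the conjugating and deubiquitinating enzymes 10 rose and 1 fell of 29 measured (18 higher and 0 lower with median centring over all probes, 2 higher and 2 lower with the covariate). Nploc4, a cofactor of the p97 segregase, rose 2.21-fold, Usp28 at least 1.37-fold and Ube2o 2.08-fold. Usp14, a deubiquitinase bound to the proteasome, rose 2.58-fold on its brightest probe, while a dimmer probe at -0.66 and the mean of its probes did not pass (adjusted p = 0.131 and 0.171).

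Autophagy genes stood at 9 higher and 3 lower of 22 (15 higher and 0 lower with median centring over all probes), and at 2 higher and 3 lower with replicates 2 and 3 left out. Sqstm1, the cargo receptor p62, had levels of 12.85, 12.77 and 13.10 in the controls and 13.77, 13.68 and 14.04 in the denervated samples and rose 1.90-fold (0.92 ± 0.13 (SE), adjusted p = 7.73e-06). Map1lc3a, an LC3 protein of the autophagosome membrane, rose 1.79-fold on its brightest probe and fell by 0.50 on the log2 scale on another, and the mean of its probes did not pass (adjusted p = 0.380). Pink1, the mitophagy kinase, fell 1.70-fold and Atg9a 1.65-fold. With the covariate 2 autophagy genes were higher and 2 lower. Of lysosomal proteases and calpains, 6 rose and 2 fell of 17 measured (11 higher and 2 lower with median centring over all probes). Ctsd, cathepsin D, rose 2.26-fold (1.18 ± 0.15 (SE), adjusted p = 2.53e-06), and Capn2, a ubiquitous calpain, 2.23-fold, with 2 of its other 3 probes passing and 1 not (0.50). Capn3, the calpain specific to muscle, fell 2.47-fold (-1.30 ± 0.19 (SE), adjusted p = 2.07e-05).

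Of 31 chaperones measured, 22 rose and 2 fell, with a median of 0.75. The list stood at 25 higher and 0 lower with median centring over all probes, and at 8 higher and 2 lower with the covariate. Hspb1, the small heat shock protein HSP27, had levels of 14.23, 14.34 and 14.20 in the controls and 15.94, 15.89 and 15.97 in the denervated samples. It rose 3.19-fold (1.67 ± 0.11 (SE), adjusted p = 4.24e-10), with no overlap. Hspa4 and Hsph1, nucleotide exchange factors of HSP70, rose 3.30-fold and 2.72-fold, and Bag3, which steers clients to autophagy, 1.97-fold. One of the 2 falls was Hspb6, a small heat shock protein of muscle (1.5-fold). With replicates 2 and 3 left out 14 rises and 2 falls were counted.

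Many genes for making ribosomes rose, and few of those for the ribosome itself passed the test. Of 27 ribosome assembly genes 15 rose and 1 fell (median 0.55) (24 higher and 0 lower with median centring over all probes, 7 higher and 0 lower with the covariate). Of 31 cytosolic ribosomal proteins 3 rose and none fell (median 0.14). Bop1, needed to process the large subunit RNA, had levels of 9.76, 9.53 and 9.69 in the controls and 11.03, 11.24 and 11.30 in the denervated samples and rose 2.89-fold (1.53 ± 0.12 (SE), adjusted p = 5.59e-09). Rrp12 rose 2.87-fold and Polr1b, a subunit of RNA polymerase I, 2.54-fold. Of the ribosomal proteins Rpl13a rose 1.84-fold. With median centring over the probes kept the ribosomal proteins stood at 1 higher and 6 lower, and over all probes at 10 higher and 0 lower.

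Of 30 translation factors 13 rose and 3 fell (20 higher and 0 lower with median centring over all probes, 11 higher and 6 lower over the probes kept, 4 higher and 3 lower with the covariate). Eif4a1, the cap-complex helicase, rose 2.03-fold (1.02 ± 0.14 (SE), adjusted p = 5.03e-06), and Eef1a1, the elongation factor of growing tissues, 1.75-fold. Eif4e, the cap-binding protein, fell 1.94-fold. Eef2k, which inhibits elongation, fell 1.64-fold on its brightest probe, but others at -0.09 and 0.19 did not pass, nor did the mean of its probes (adjusted p = 0.204). ATF4 targets and transfer RNA synthetases stood at 10 higher and 2 lower of 24 (11 higher and 4 lower with median centring over the probes kept, 5 higher and 2 lower with the covariate). Mthfd2 and Psat1, of one-carbon and serine synthesis, rose 3.16-fold and 2.82-fold, and the amino acid carrier Slc7a5 2.62-fold. Ddit3, the stress factor CHOP and a classical ATF4 target, had levels of 10.41, 10.53 and 9.35 in the controls and 8.49, 8.02 and 8.01 in the denervated samples and fell 3.79-fold (-1.92 ± 0.22 (SE), adjusted p = 6.16e-07).

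Respiratory chain genes fell together. All 31 measured subunits of complex I fell, with changes from -1.90 to -0.38 and a median of -0.98. Ndufa8 had levels of 13.55, 13.62 and 13.45 in the controls and 12.39, 11.95 and 11.98 in the denervated samples, with the groups apart, and fell 2.69-fold (-1.43 ± 0.13 (SE), adjusted p = 2.00e-08). All 10 measured genes of complexes II and III and cytochrome c fell (median -0.86), among them Uqcr11 (2.23-fold) and Sdhb (2.01-fold, though a dimmer Sdhb probe was at -0.17). In complex IV 12 of 17 fell and in complex V 10 of 15. Cox7a1, the muscle isoform of a complex IV subunit, fell 3.08-fold (-1.63 ± 0.15 (SE), adjusted p = 4.92e-08), whereas Cox6a2, another muscle isoform, was -0.14 (adjusted p = 0.247).

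No respiratory subunit rose in the model as fitted. With the covariate the falls numbered 17, 6, 3 and 3 for complexes I, II with III, IV and V, with no rise. With replicates 2 and 3 left out the falls numbered 26, 7, 5 and 7 for complexes I, II with III, IV and V, again with no rise. Median centring over all probes gave 25, 6, 7 and 9 falls, and 2 complex IV subunits were then higher. Of 40 mitochondrial ribosomal proteins 23 fell and none rose (median -0.48), led by Mrpl42 at 2.51-fold. Under that centring they stood at 11 higher and 6 lower, and with the covariate at 1 higher and 4 lower. With replicates 2 and 3 left out their median was -0.21.

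Regulators of mitochondria fell as well, 14 of 27 against 3 rises, although median centring over all probes put 9 higher and 5 lower. Perm1, described above, headed this list. Esrra, the nuclear receptor ERR alpha that drives respiratory genes, had levels of 10.64, 10.38 and 10.30 in the controls and 8.84, 8.76 and 8.98 in the denervated samples and fell 3.00-fold (-1.58 ± 0.16 (SE), adjusted p = 2.28e-07). Ppargc1a, the coactivator PGC-1 alpha, fell 1.91-fold (-0.94 ± 0.18 (SE), adjusted p = 2.98e-04), and Ppara, the receptor for fatty acid use, at least 1.97-fold. Ckmt2, the mitochondrial creatine kinase of muscle, fell 2.31-fold.

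Genes of fuel oxidation mostly fell. Of the citric acid cycle and pyruvate dehydrogenase genes 13 fell and 2 rose of 23; with median centring over all probes the list stood at 4 higher and 6 lower. Idh2 fell 4.33-fold (-2.11 ± 0.18 (SE), adjusted p = 8.78e-09), Mdh1 3.26-fold and Idh3a 2.70-fold. The pyruvate dehydrogenase kinases split, with Pdk2 down 2.59-fold and Pdk3 up at least 1.65-fold. Of 25 genes of fatty acid uptake and oxidation 15 fell and none rose (median -0.71). With median centring over all probes the list stood at 1 higher and 10 lower (median -0.10). Cpt1b, which admits fatty acids to mitochondria, had levels of 13.07, 12.91 and 13.21 in the controls and 11.56, 11.65 and 12.03 in the denervated samples and fell 2.49-fold (-1.32 ± 0.15 (SE), adjusted p = 5.06e-07). Lpl, Fabp3 and Slc27a1, of lipid uptake and binding, fell 2.56-fold, 2.66-fold and 2.74-fold.

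Glycolysis fell in 7 of 18 genes and rose in 2 (2 higher and 12 lower with median centring over the probes kept). Ldhb, the lactate dehydrogenase of oxidative tissue, fell 4.80-fold (-2.26 ± 0.16 (SE), adjusted p = 1.07e-09) on its brightest probe, and a dimmer probe was at -0.28 and did not pass. Tpi1 fell 2.76-fold (-1.47 ± 0.11 (SE), adjusted p = 1.74e-09), Fbp2 2.83-fold, Gpd1 2.00-fold and the insulin-responsive glucose carrier Slc2a4 2.00-fold. Glycogen genes stood at 4 higher and 6 lower of 16, at 6 higher and 1 lower with median centring over all probes, and at 1 higher and 6 lower with the covariate. Stbd1, which tethers glycogen to membranes, rose 3.94-fold (1.98 ± 0.18 (SE), adjusted p = 4.38e-08), while Ppp1r3c, a glycogen-targeting phosphatase subunit, fell 2.06-fold. Pygm, glycogen phosphorylase, and Phkg1, a subunit of its kinase, fell 1.71-fold and 1.66-fold.

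**Figure D3:**
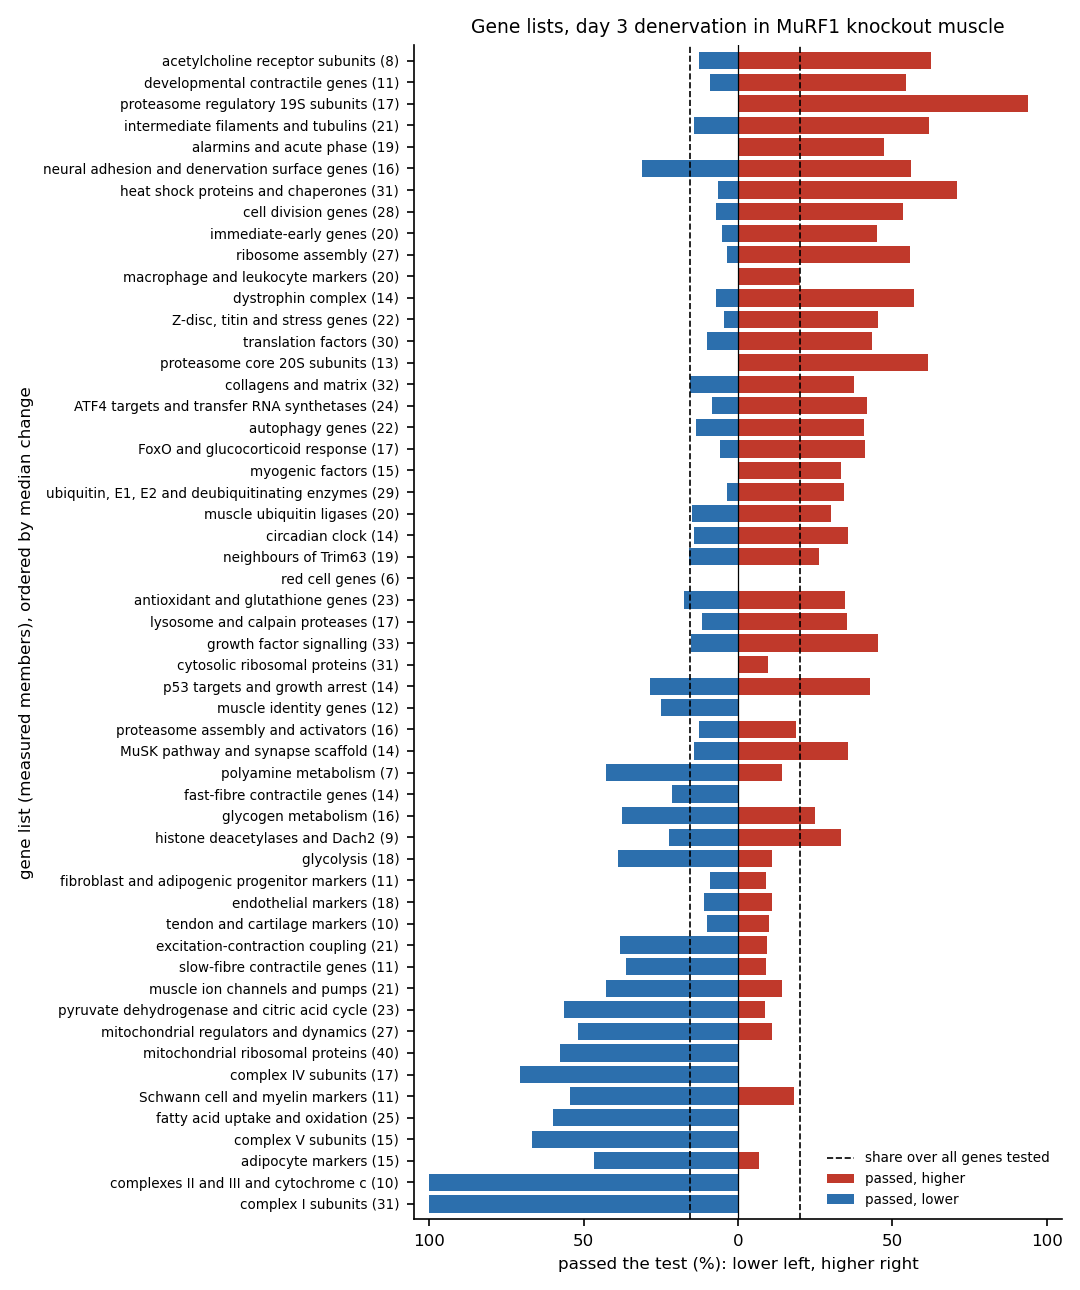
Share of measured members of each of 54 gene lists that passed the test and were higher (red, to the right) or lower (blue, to the left) in denervated day 3 knockout muscle, ordered by the median change; numbers in brackets are the measured members and dashed lines the shares over all genes tested, 20.2% and 15.6%. Complex I and complexes II and III reach 100% lower, and the 19S proteasome has the widest rise.

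Of 14 fast-fibre genes 3 fell and none rose, against 35.8% of all genes changed in either direction; Myh4, the main fast myosin of this muscle, was 0.05 (adjusted p = 0.828). Casq1, the calcium buffer of fast fibres, fell 2.79-fold (-1.48 ± 0.20 (SE), adjusted p = 7.54e-06) and Myoz1 1.81-fold. Fast-fibre genes, with median centring over the probes kept, stood at 0 higher and 10 lower. Of 11 slow-fibre genes 4 fell and 1 rose (1 higher and 2 lower with median centring over all probes, 0 higher and 7 lower over the probes kept). The falls included the light chains Myl2 (2.87-fold) and Myl3 (1.77-fold). The rise was Atp2a2, the slow calcium pump, at 0.66, with other probes at 0.05 and 0.16 that did not pass, and it did not pass with replicates 2 and 3 left out (adjusted p = 0.709). Atp2a2 also missed the threshold without control replicate 1, control replicate 2, denervated replicate 2 or denervated replicate 3 alone (adjusted p = 0.0742 to 0.114).

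Of 11 developmental contractile genes 6 rose and 1 fell. Igfn1, a sarcomeric immunoglobulin protein, had levels of 8.70, 7.88 and 7.58 in the controls and 11.15, 12.08 and 11.56 in the denervated samples and rose 11.7-fold (3.54 ± 0.38 (SE), adjusted p = 3.88e-07). Tnnt2, the cardiac and embryonic troponin T, rose 5.14-fold (2.36 ± 0.17 (SE), adjusted p = 9.83e-10) and Myh8, neonatal myosin, 2.56-fold. Csrp3, the muscle LIM protein, rose 3.52-fold. Myl4, the embryonic light chain, rose 5.01-fold on its brightest probe, with another at 0.24. Actc1, cardiac actin, had levels of 13.64, 14.07 and 13.47 in the controls and 11.05, 11.40 and 10.88 in the denervated samples and fell 6.13-fold (-2.62 ± 0.31 (SE), adjusted p = 1.20e-06).

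Z-disc and titin-associated genes stood at 10 higher and 1 lower of 22, and at 7 higher and 6 lower with median centring over the probes kept. Beside Ankrd1, its relative Ankrd2 rose 4.94-fold (2.30 ± 0.20 (SE), adjusted p = 2.05e-08), Cavin4, of muscle caveolae, 2.81-fold, and Pdlim3 2.58-fold. Of 21 intermediate filaments and tubulins 13 rose and 3 fell (16 higher and 0 lower with median centring over all probes). The keratins Krt8 and Krt18, partners in simple epithelia, rose at least 7.49-fold (Krt8) and 13.4-fold (Krt18). Krt18 stood at 5.13, 6.22 and 5.23 in the controls and 8.81, 9.46 and 9.52 in the denervated samples. Tubb6, a beta tubulin of regenerating muscle, rose 7.55-fold (2.92 ± 0.18 (SE), adjusted p = 1.35e-10), Tubb2b 4.35-fold and the nuclear lamin Lmna 4.32-fold.

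Excitation-contraction coupling fell in 8 and rose in 2 of 21 genes; with median centring over all probes the list stood at 5 higher and 3 lower. Hrc, a calcium-binding protein of the sarcoplasmic reticulum, fell 3.46-fold (-1.79 ± 0.13 (SE), adjusted p = 8.46e-10) and Camk2a 3.24-fold, with other probes at -0.99, which passed, and -0.51, which did not. Pln, phospholamban, the inhibitor of the slow calcium pump, had levels of 6.37, 7.25 and 7.61 in the controls and 9.02, 9.16 and 9.77 in the denervated samples and rose 4.73-fold (2.24 ± 0.30 (SE), adjusted p = 6.64e-06). Cacng1, a subunit of the voltage sensor, rose 2.17-fold, and Ryr1, the release channel, was -0.15 (adjusted p = 0.397). Of ion channels and pumps 9 fell and 3 rose of 21 (5 higher and 7 lower with median centring over all probes). The potassium channels Kcnc1 and Kcna7 fell 6.30-fold and 3.77-fold, whereas Kcnn3, the apamin-sensitive channel known from denervated muscle, rose at least 1.72-fold and Panx1, a large-pore channel, 6.00-fold. Dystrophin complex and integrin genes stood at 8 higher and 1 lower of 14 (13 higher and 0 lower with median centring over all probes, 4 higher and 0 lower with the covariate). Dysf, which reseals membranes, was up 2.69-fold and the laminin receptor Itga7 up 2.33-fold.

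Growth arrest genes moved strongly in both directions. Of 14 measured p53 targets and growth arrest genes 6 rose and 4 fell. Cdkn1a, the cell cycle inhibitor p21, had levels of 9.40, 9.02 and 10.09 in the controls and 13.26, 12.99 and 13.55 in the denervated samples and rose 13.6-fold (3.77 ± 0.24 (SE), adjusted p = 1.56e-10). Gadd45a, a stress protein induced through Hdac4 in denervated muscle, rose 12.4-fold (3.63 ± 0.19 (SE), adjusted p = 8.19e-12), while its paralogues Gadd45b and Gadd45g fell 4.75-fold and 4.94-fold. Rb1, the retinoblastoma gene, rose 4.04-fold. FoxO and glucocorticoid targets stood at 7 higher and 1 lower of 17 (12 higher and 0 lower with median centring over all probes, 3 higher and 0 lower with the covariate). The metallothioneins Mt1 and Mt2, which bind zinc, rose 5.26-fold and 7.33-fold (2.87 ± 0.23 (SE), adjusted p = 3.87e-09). Foxo1 and its target Pdk4 were 0.60 and 1.04, and neither passed with replicates 2 and 3 left out (adjusted p = 0.850 and 0.450). Foxo1 also missed the threshold without control replicate 1, control replicate 2, denervated replicate 2 or denervated replicate 3 alone (adjusted p = 0.0652 to 0.202). Pdk4 also missed the threshold without control replicate 1, control replicate 2, denervated replicate 2 or denervated replicate 3 alone (adjusted p = 0.0504 to 0.293).

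Of growth factor signalling genes 15 rose and 5 fell of 33 measured (22 higher and 2 lower with median centring over all probes). Irs1, the insulin receptor substrate, fell 3.23-fold (-1.69 ± 0.19 (SE), adjusted p = 6.42e-07), and Acvr2b, the myostatin receptor, 2.60-fold. Igfbp5 rose 2.44-fold, Tgfbr1 2.73-fold and the kinase Mtor 2.07-fold on its brightest probe, with another at 0.65 that did not pass. Of immediate-early genes 9 rose and 1 fell of 20 measured. Socs3, the feedback inhibitor of cytokine signalling, had levels of 7.68, 7.19 and 7.44 in the controls and 10.30, 10.67 and 9.74 in the denervated samples and rose 6.95-fold (2.80 ± 0.25 (SE), adjusted p = 1.93e-08). Atf3 rose at least 4.17-fold, Junb 3.86-fold and Fos 3.22-fold, and Dusp1 fell 1.92-fold. Antioxidant genes stood at 8 higher and 4 lower of 23 (12 higher and 1 lower with median centring over all probes, 5 higher and 5 lower over the probes kept), with Hmox1, heme oxygenase, up 3.24-fold, Txnrd1 up 3.17-fold and the mitochondrial Sod2 down 1.76-fold. Of polyamine genes 1 rose and 3 fell of 7 measured (3 higher and 1 lower with median centring over all probes). Smox, spermine oxidase, fell 3.08-fold on its brightest probe. Of its 4 other probes 3 passed, at -1.57 to -1.85, and 1, at -0.66, did not. Of 14 clock genes 5 rose and 2 fell (8 higher and 0 lower with median centring over all probes, 2 higher and 0 lower with the covariate). Among the rises were Cry2 (2.17-fold) and Rora (2.44-fold, another probe at -0.24).

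Markers of other cell types were set beside these changes. Of 20 measured macrophage and leukocyte markers 4 rose and none fell, the share of all genes that rose being 20.2%. Their changes, called or not, ran from -1.02 to 2.22 on the log2 scale. The count was 15 higher with median centring over all probes, 6 over the probes kept, 7 with an offset of 50 and 12 with the covariate (median 1.41), with none lower in any of them. Their summed linear level was 22080, 34060 and 16520 in the controls and 50720, 41560 and 24750 in denervated replicates 1, 2 and 3, and denervated replicate 3 lay within the controls. Lgals3, galectin 3, had levels of 11.30, 12.03 and 10.76 in the controls and 13.86, 13.71 and 13.19 in the denervated samples and rose 4.67-fold (2.22 ± 0.27 (SE), adjusted p = 1.79e-06). With denervated replicate 1 alone the median change of the list was 1.08 and 10 members passed; for the mean of replicates 2 and 3 the median was 0.21. Alarmins and acute-phase genes rose in 9 of 19, and their sum, 33440, 43140 and 23000 in the controls and 68230, 48590 and 36450 in denervated replicates 1, 2 and 3, overlapped as well. S100a8, which binds S100A9 in neutrophils, had levels of 7.75, 6.72 and 5.12 in the controls and 12.41, 10.65 and 11.31 in the denervated samples and rose 30.4-fold (4.92 ± 0.52 (SE), adjusted p = 2.44e-07). Its partner S100a9 was -0.33 (adjusted p = 0.550).

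Timp1, a protease inhibitor of injured tissue, rose 8.36-fold, Serpina3n 6.70-fold and Tnfrsf12a, the TWEAK receptor, 7.05-fold. Of 32 collagen and matrix genes 12 rose and 5 fell (19 higher and 1 lower with median centring over all probes), and of 11 fibroblast and progenitor markers 1 and 1 (6 higher and 0 lower with median centring over all probes, 1 higher and 3 lower over the probes kept, 4 higher and 0 lower with the covariate). Mmp3, a matrix protease, rose 3.77-fold and Col3a1 2.65-fold, and Timp4 fell 5.26-fold. Scx, the tendon factor scleraxis, rose 10.6-fold (3.40 ± 0.31 (SE), adjusted p = 3.05e-08), while the tendon and cartilage list held 1 rise and 1 fall of 10 (4 higher and 0 lower with median centring over all probes). Cell division genes stood at 15 higher and 2 lower of 28 (21 higher and 0 lower with median centring over all probes, 13 higher and 5 lower over the probes kept); Mcm6, of the replication helicase, rose 4.34-fold and Prc1, of the cytokinetic spindle, 6.63-fold. Their sum was 4059, 5034 and 3775 in the controls and 7099, 6023 and 5201 in denervated replicates 1, 2 and 3, and here all denervated samples lay above all controls.

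Schwann cell and myelin markers fell in 6 and rose in 2 of 11, with changes over the list from -2.25 to 1.15. The genes named here are all among the falls. Their sum was 5039, 5959 and 5778 in the controls and 3345, 3564 and 2808 in denervated replicates 1, 2 and 3, without overlap. Ncmap, a myelin protein of peripheral nerve, fell at least 2.59-fold (-2.19 ± 0.18 (SE), adjusted p = 5.59e-09) and Mag, myelin-associated glycoprotein, at least 2.10-fold. Mbp, myelin basic protein, fell 4.75-fold on its brightest probe, while 3 dimmer probes between -0.58 and 0.35 did not pass. The list stood at 4 higher and 3 lower with median centring over all probes, and at 0 higher and 3 lower with the covariate. Adipocyte markers stood at 1 higher and 7 lower of 15 (1 higher and 2 lower with median centring over all probes, 0 higher and 1 lower with the covariate), with sums of 70870, 84860 and 83720 in the controls and 56720, 68480 and 68430 in denervated replicates 1, 2 and 3, again without overlap. Endothelial markers stood at 2 higher and 2 lower of 18 (7 higher and 1 lower with median centring over all probes, 2 higher and 5 lower over the probes kept), with sums of 28420, 31920 and 32260 in the controls and 26470, 23140 and 20990 in denervated replicates 1, 2 and 3. Of 6 red cell genes none passed, and their sums, 167900, 160000 and 157100 in the controls and 191900, 188000 and 150600 in denervated replicates 1, 2 and 3, overlapped. The part of these cell types in the changes of other genes was not tested.

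The comparison with wild type muscle at day 3, which shares no sample with the knockout, asked where the response to denervation differed between the genotypes. In wild type 4242 genes (37.5%) were called. Of the 4055 knockout calls, 2645 were called in the same direction in wild type, which is 65.2% of the knockout calls and 62.4% of the wild type ones, and 10 in the opposite direction. Across all genes the 2 sets of changes correlated at 0.80, a description over genes that are not independent. The difference itself passed in 122 genes (1.08%) by the interaction of genotype and denervation, positive in 0.645% and negative in 0.433% of genes, and in 3 with denervated knockout replicates 2 and 3 left out. At an unadjusted p under 0.05 it was 1985 genes. The count also turned on single arrays. It was 983 without denervated knockout replicate 1 and 618 without control knockout replicate 3, and between 31 and 56 without any other single knockout array; without single wild type arrays it was between 37 and 82. Of the 122, 52 were called in the same direction in both genotypes, 8 in opposite directions, 19 in the knockout but not the wild type, and 43 in the wild type but not the knockout. A call in 1 genotype alone does not show a difference. Of 1400 knockout calls not called in wild type, 1381 had no interaction call.

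The 3 genes that kept the interaction without those 2 arrays were Fgfbp1, Neu2 and Zbtb8os. Neu2, a cytosolic sialidase, had knockout levels of 12.20, 12.21 and 12.16 in the controls and 10.82, 10.87 and 10.71 in the denervated samples. In wild type they were 12.34, 12.58 and 12.28 in the controls and 9.23, 8.41 and 9.28 in the denervated samples. Neu2 thus fell in both genotypes, by 1.39 on the log2 scale in the knockout against 3.43 in wild type (interaction 2.04 ± 0.25 (SE), adjusted p = 4.39e-04). Fgfbp1, which releases fibroblast growth factors from matrix, changed by -1.39 in the knockout and by -3.73 or below in wild type, where no denervated sample detected the probe (interaction 2.75 ± 0.35 (SE), adjusted p = 4.39e-04). Its denervated knockout samples stood at 7.11, 7.15 and 7.02 and the wild type ones at 5.52, 5.08 and 5.37. Zbtb8os was undetected in both knockout groups and stood at 5.70, 6.28 and 5.64 and 7.87, 7.68 and 7.97 in control and denervated wild type muscle (interaction -2.20 ± 0.27 (SE), adjusted p = 4.39e-04).

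Among the 20 genes with the largest interaction and separated values, 10 in each direction, Ddit4l, an inhibitor of mTOR signalling, was 1.36 in the knockout against -0.97 in wild type (interaction 2.34 ± 0.39 (SE), adjusted p = 0.00646). Ddit4l had denervated knockout levels of 13.52, 14.04 and 13.80 against controls of 11.84, 12.78 and 12.65. Avil, an actin-binding protein, was 0.83 against -1.0, and Dupd1, a dual-specificity phosphatase of muscle, -0.36 against 1.87. Sec61b, of the protein translocation channel, was -2.05 in the knockout against 0.07 in wild type (interaction -2.12 ± 0.39 (SE), adjusted p = 0.0118). In the next genes at least 1 group did not detect the probe, which held for 10 of the 20 and 24 of the 122; their interactions include background signal and their changes there are bounds. Abat, which breaks down GABA, was 0.26 in the knockout and -1.17 or below in wild type, and Ccdc110 1.48 and -0.28 or below. Orm2 was at least 3.17 in the knockout and at least 5.70 in wild type, with mean denervated levels of 8.99 and 11.53. The glutathione transferase Gsta1 was undetected in both knockout groups and at least 1.73 in wild type. Gsta2 had undetected controls in both genotypes, and was at least 2.22 in wild type, while no fold above 1 could be bounded in the knockout; near-identical paralogues can share probes, so the separate values of Gsta1 and Gsta2 are uncertain. With denervated knockout replicates 2 and 3 left out, 17 of the 20 had no interaction call; the adjusted p of Ddit4l, Orm2 and Sec61b was then 0.161, 0.0954 and 0.307, and the changes of Ddit4l, Ccdc110, Avil and Gsta2 within the knockout did not pass either (adjusted p = 0.0716, 0.0866, 0.256 and 0.185). Cops8, Fam83d, Pfkfb3, Tnfrsf4, Rbp7, Sidt1, Kif23 and Rbm47, 8 of the 20, lost the call in 4 to 10 of the 12 fits that left out 1 array of the groups compared. Their interactions were 2.85 for Cops8, 2.61 for Fam83d, 2.30 for Pfkfb3, 1.92 for Tnfrsf4, -3.49 for Rbp7, -2.04 for Sidt1, -1.84 for Kif23 and -1.82 for Rbm47. Zfp593, which is not among the 20, had an interaction of -1.64 ± 0.24 (SE), adjusted p = 0.00339; it rose in both genotypes, at least 4.62 in the knockout and 6.51 in wild type. For Rbp7 and Kif23 another probe gave a knockout change of 0.15 and -0.55.

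**Figure D4:**
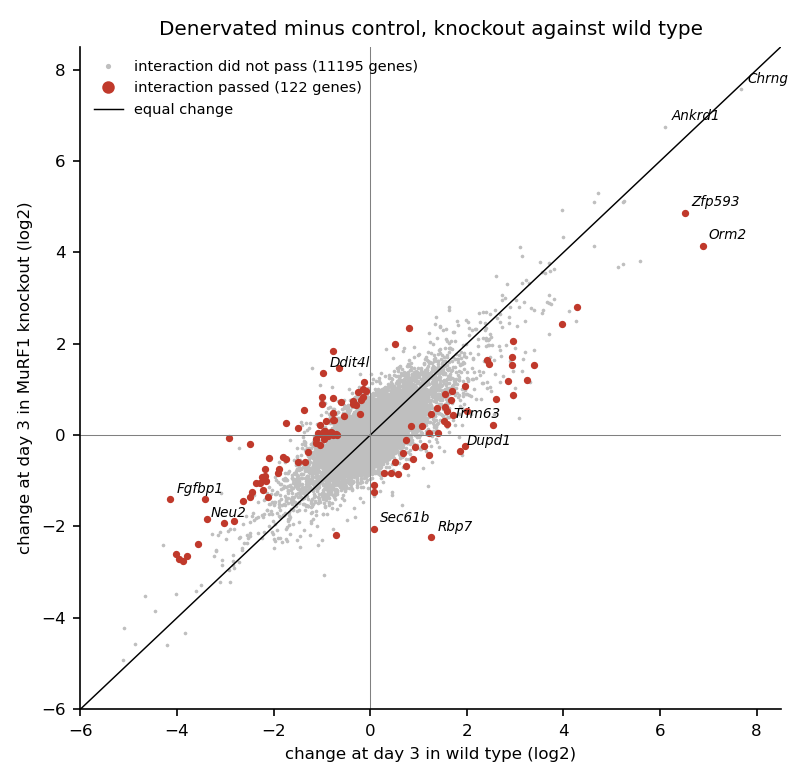
Change at day 3 after denervation in wild type (x axis) and MuRF1 knockout muscle (y axis), denervated minus control on the log2 scale, 1 point a gene; red points are the 122 genes whose genotype by denervation interaction passed and the line marks equal change. Most genes lie along the line; Orm2 and Zfp593 lie below it at the upper right, and Sec61b lies at -2.05 in the knockout and 0.07 in wild type.

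By list, the knockout and wild type medians lay side by side as follows. The wild type counts are to be read against 2258 genes called higher and 1984 called lower in wild type, of 11317 tested. The 20S core stood at 8 higher (median 0.39) in the knockout and 12 higher and 0 lower (median 0.92) in wild type, and 1 subunit, Psma7, had an interaction call (-0.80 ± 0.18 (SE), adjusted p = 0.0413). The 19S particle stood at 16 higher in the knockout and 16 higher and 0 lower (median 0.98) in wild type, with no interaction call. Macrophage markers, 4 higher in the knockout, stood at 16 higher and 0 lower (median 1.22) in wild type, and endothelial markers at 0 higher and 10 lower (median -0.47); in the macrophage list no interaction passed. Slow-fibre genes, 1 higher and 4 lower in the knockout, stood at 0 higher and 9 lower (median -1.03). An interaction call was found in 2 slow-fibre genes and 1 endothelial marker, each more upward in the knockout. Complex I stood at 31 lower in the knockout and 0 higher and 30 lower (median -0.75) in wild type. Cell division genes stood at 20 higher and 2 lower (median 1.43) in wild type against 15 and 2. A difference between the counts of 2 genotypes is not a test of the lists.

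Of the 999 list members measured, 19 had an interaction call, against 122 of all 11317 genes (1.08%). The lists were chosen with earlier results of these data known, so these counts are a description. Gpd1, of the glycerol phosphate shuttle, was -1.0 in the knockout against -2.17 in wild type (interaction 1.16 ± 0.20 (SE), adjusted p = 0.00700). Phkg1 was -0.73 against -2.18, Hspb6 -0.58 against -1.36, and Ncmap -1.37 or below against undetected in both wild type groups. Tnfrsf12a rose in both genotypes, 2.82 against 4.28. Eif6, a ribosome assembly and initiation factor, was 0.58 against 1.38, its other probe, at 0.43 in the knockout, not passing there, and the potassium channel Kcnc4 1.00 against -0.15. Six4 was at least 1.05 against -0.14, and Tek, the angiopoietin receptor, 0.49 against -0.78. Without denervated knockout replicates 2 and 3 none of these had an interaction call; the changes of Tek and Kcnc4 in the knockout did not pass either (adjusted p = 0.136 and 0.0612).

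At day 14 in the knockout, in other samples and against the day 14 controls, 4150 genes (36.7%) were called. Of the day 3 calls, 1850 were called in the same direction at day 14, which is 45.6% of the day 3 and 44.6% of the day 14 calls, and 158 in the opposite direction. Across genes the changes correlated at 0.61, again a description. The interaction of day and denervation passed in 2332 genes (20.6%), positive in 9.12% and negative in 11.5% of genes, and in 219 without denervated replicates 2 and 3 of day 3. It was 1535 without day 3 denervated replicate 2, 1420 without day 3 denervated replicate 3 and 1476 without day 14 denervated replicate 2. All 158 opposite calls had an interaction call, as had 796 genes called only at day 3, 958 called only at day 14 and 312 called in the same direction on both days.

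Several of the largest rises were smaller at day 14. Chrna9 was 5.10 at day 3 and 2.46 at day 14 (interaction -2.64 ± 0.42 (SE), adjusted p = 4.69e-04) and Ankrd1 6.76 at day 3 and 5.42 at day 14 (interaction -1.34 ± 0.22 (SE), adjusted p = 7.62e-04), both on probes detected in all groups. Musk and Ttyh1 were undetected in the controls of both days, so that their changes are bounds and their interactions include background. Musk was at least 3.07 at day 3 and at least 2.62 at day 14 (interaction -1.34 ± 0.21 (SE), adjusted p = 5.43e-04); its mean denervated level went from 8.89 to 8.24 and that of the undetected controls from 4.76 to 5.44. Ttyh1 was at least 4.58 and at least 3.21, with mean denervated levels of 10.40 and 8.84 and control levels of 5.27 and 5.41. Chrng, undetected in the same controls, was at least 6.62 and at least 6.96, with an interaction of 0.17 ± 0.29 (SE), adjusted p = 0.719. Cd82 was 3.79 at day 3 and 3.14 at day 14. Zfp593 was at least 4.62 at day 3, over undetected controls, and 3.90 at day 14, also with an interaction call. Of the largest falls, Dhrs7c and Aqp4 were lower still at day 14, at -5.27 and -4.47 or below, whereas Rsph1 and Riiad1 were at -2.01 and -2.03. The other 20 of the 30 genes with the largest day 3 changes had no call for the day interaction.

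Beside Chrna9, the 20 largest differences between the days were in the genes that follow. Lcn2, lipocalin 2, an iron-sequestering acute-phase protein, was detected at day 3 in denervated muscle at 8.11, 6.77 and 7.67 over undetected controls, at least 1.70, and was undetected in both groups at day 14 (interaction -2.61 ± 0.31 (SE), adjusted p = 4.61e-05). Ddit4l was 1.36 at day 3 and -1.28 at day 14, the phosphofructokinase-2 gene Pfkfb3 -0.19 at day 3 and -2.29 at day 14, and the mitochondrial carrier Slc25a25 0.40 at day 3 and -2.01 at day 14. Cd24a, Kbtbd8, Sox7, Tnfrsf4 and Txnl1 were also lower at day 14 by the interaction. Of the 20 genes, 8 were undetected in at least 1 of the 4 groups, as were 239 of the 2332. With denervated replicates 2 and 3 of day 3 left out, Sox7, Tnfrsf4, Pfkfb3 and Txnl1 lost that call (adjusted p = 0.0569, 0.0504, 0.0991 and 0.401), and Txnl1 lost it without denervated replicate 2 alone. In the other direction Uchl1, a neuronal deubiquitinase, was 0.09 at day 3 and 3.55 at day 14 (interaction 3.46 ± 0.46 (SE), adjusted p = 1.29e-04), Mt3, a metallothionein, -0.30 at day 3 and 3.19 at day 14, and Bpifb1, undetected at day 3, at least 2.73 at day 14. Ear3, a ribonuclease of eosinophils, was -1.78 at day 3 and 1.98 at day 14, with other probes at -0.16 and -0.55 at day 3 that did not pass, and lost the call with those 2 arrays left out (adjusted p = 0.0786). Slc23a3, Mmp12, a macrophage elastase, Opn1mw, Emb, Meig1 and Dupd1 were likewise higher at day 14.

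By list, the day 14 changes were set beside those of day 3. Over all 11317 genes, 2147 were called higher and 2003 lower at day 14. The day interaction was called toward higher at day 14 in 9.12% of genes and toward lower in 11.5%. The counts that follow are to be read against these. Complex I stood at 0 higher and 19 lower (median -0.46) at day 14 against 31 lower at day 3, and 12 of its 31 subunits had an interaction call, all less reduced at day 14. Complexes II and III stood at 0 higher and 7 lower (median -0.86) against 10 lower (median -0.86) at day 3, with 1 interaction call toward higher and 0 toward lower at day 14. Complex IV stood at 1 higher and 9 lower (median -0.27) with 2 and 2 such calls, and complex V at 1 higher and 5 lower (median -0.22) with 7 and 0. Mitochondrial ribosomal proteins stood at 8 higher and 9 lower (median 0.09), with 14 interaction calls toward higher at day 14 of 40. Citric acid cycle genes went the other way, with 0 higher and 19 lower (median -0.91) at day 14 and 11 interaction calls toward lower at day 14. Cytosolic ribosomal proteins, 3 higher at day 3, stood at 22 higher and 0 lower (median 0.50), with 12 interaction calls toward higher at day 14 of 31. Chaperones stood at 12 higher and 6 lower (median 0.24), with 10 calls toward lower at day 14. Macrophage markers stood at 16 higher and 0 lower (median 1.21). Myh8 and Igfn1 rose further, to 3.48 and 5.74 on the log2 scale at day 14.

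**Figure D5:**
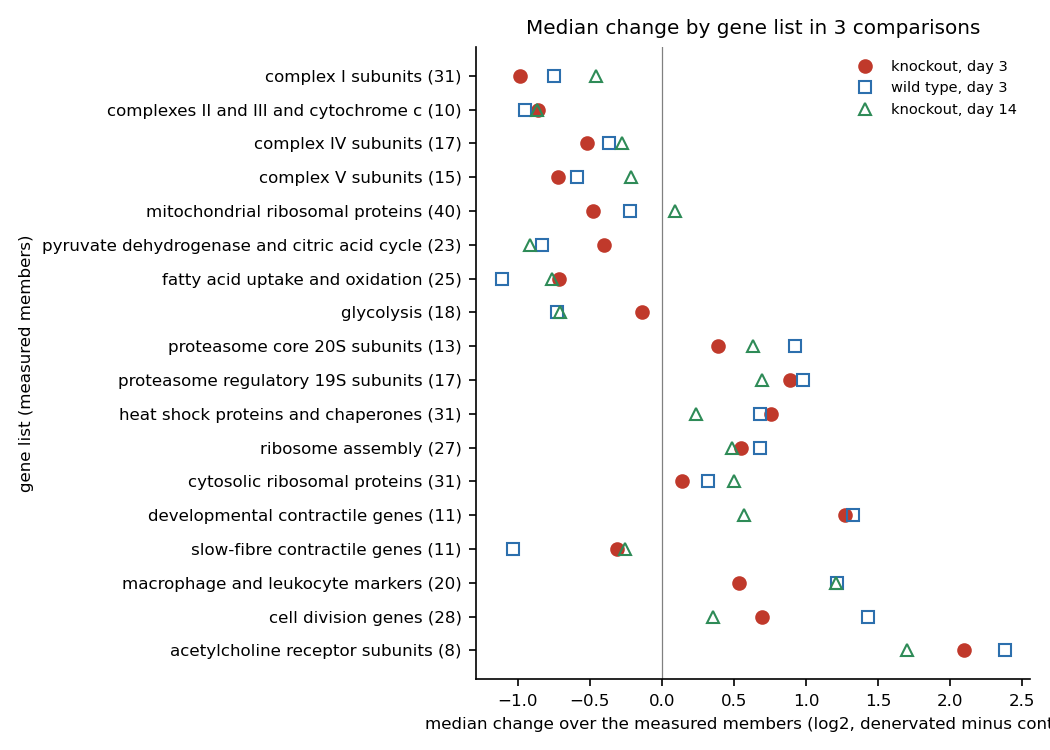
Median log2 change, denervated minus control, over the measured members of 18 gene lists in day 3 knockout (red circles), day 3 wild type (blue squares) and day 14 knockout muscle (green triangles). Complex I has the lowest day 3 knockout median of the plotted lists, -0.98, and the 20S core lies at 0.39 against 0.92 in wild type.

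Within the denervated group, replicate 1 differed from replicates 2 and 3 in single genes and in list medians. These values describe the 3 arrays and carry no test. The genes were chosen for that difference, so a fit with replicate 1 alone is no check on them. Jup, plakoglobin, stood at 10.65, 11.97 and 12.03 in replicates 1, 2 and 3 with controls of 9.36, 9.40 and 9.72. It rose 4.15-fold on this probe, with another at 0.01. Shh and Stam2 stood at 6.13, 7.65 and 7.43 and 5.61, 6.96 and 7.30, and another Stam2 probe was at 0.10. Fkbp2, a chaperone of the endoplasmic reticulum, stood at 9.96, 8.75 and 8.71 with controls of 10.50, 10.66 and 9.95, so replicate 1 lay within the controls. Shh, Stam2 and Fkbp2 had no call with the number of detected probes as a covariate (adjusted p = 0.134, 0.443 and 0.724). That number also set replicate 1 apart. Lin7c and Kcnab1 were lower in replicate 1, at 5.30, 6.94 and 6.84 and 5.30, 6.72 and 6.75, and Cars and Clec4b1 higher, at 9.18, 7.78 and 7.67 and 7.77, 6.32 and 6.31. Fnbp4, Gpatch2l and R3hdm2 were likewise lower in replicate 1, by -1.52, -1.46 and -1.43 log2 units against the mean of the other two. Napsa, Vmn1r6, Rprm, Tspan32 and Fxyd2 were higher in it, by 1.39, 1.37, 1.33, 1.25 and 1.24. By list, replicate 1 had a median change of 1.67 in the alarmins against 0.48 for the mean of replicates 2 and 3, of -0.21 against -0.60 in mitochondrial ribosomal proteins, and of -0.61 against -0.01 in glycogen genes.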

How the data were processed

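Total RNA was measured on 24 one-colour Illumina arrays in 8 groups of 3. The authors deposited non-normalized probe intensity values with a detection p-value per probe, per the file headers, and a table of processed intensity values whose normalization is not given in the sources used here; BeadStudio 3.2.3 is named per the submitters' processing notes. From the deposited intensities, background correction, quantile normalization and log2 transformation were done with neqc of limma 3.58.1 in R 4.3.3 (offset 16). Probes with a detection p under 0.05 on at least 3 of 24 arrays were kept (21997 of 46632), and the brightest kept probe stood for each of 11317 genes, named from the platform annotation. Of all probes, 29976 had 1 symbol, 10 several and 16646 none; 29921 matched a RefSeq gene by Entrez ID. All 24 arrays were fitted with 8 group means (16 residual degrees of freedom) and tested with lmFit and eBayes, two-sided, with Benjamini-Hochberg adjustment over all genes of each contrast. The model was tested on simulated data. Genes were named if they were among the 15 largest rises or falls with separated groups, members of 54 gene lists, the 10 largest each way in either interaction with separated values, the 8 each way that set denervated replicate 1 apart, or Trim63; clone names and predicted models were passed over. The members and lists were chosen with earlier results of these data known. Alternatives covered the arrays fitted, scaling, offset, filter, probe choice, covariate, array weights, replicate block, a 1.2-fold test and left-out replicates. Figures used matplotlib 3.10.9.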

Additional observations from a re-analysis of the deposited data

Results flagged for a closer look

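The genotype by denervation interaction at day 3, knockout minus wild type on the log2 scale, passed for 33 genes named in the text. Positive differences, where the change was more upward in the knockout, were 2.85 for Cops8, 2.75 for Fgfbp1, 2.61 for Fam83d, 2.34 for Ddit4l, 2.30 for Pfkfb3, 2.13 for Ccdc110, 2.04 for Neu2, 2.01 for Abat, 1.92 for Tnfrsf4, 1.83 for Avil, 1.68 for Sox7, 1.30 for Six4, 0.77 for Hspb6, 1.16 for Gpd1, 1.45 for Phkg1, 1.15 for Kcnc4 and 1.27 for Tek. Negative differences were -1.34 for Trim63, -1.64 for Zfp593, -2.74 for Orm2, -3.49 for Rbp7, -2.31 for Gsta1, -2.08 for Gsta2, -2.23 for Dupd1, -2.20 for Zbtb8os, -2.12 for Sec61b, -2.04 for Sidt1, -1.84 for Kif23, -1.82 for Rbm47, -0.80 for Psma7, -1.46 for Tnfrsf12a, -1.48 for Ncmap and -0.79 for Eif6. With denervated knockout replicates 2 and 3 left out, Fgfbp1, Neu2 and Zbtb8os kept the call and no other gene had one. The day by denervation interaction in the knockout, day 14 minus day 3, passed for 29 of the genes with the largest day 3 changes or day differences. Positive differences were 2.58 for Rsph1, 1.19 for Riiad1, 2.74 for Dupd1, 3.76 for Ear3, 3.49 for Mt3, 3.46 for Uchl1, 3.31 for Bpifb1, 2.92 for Slc23a3, 2.90 for Mmp12, 2.87 for Opn1mw, 2.86 for Emb and 2.83 for Meig1. Negative differences were -1.34 for Ankrd1, -1.71 for Ttyh1, -2.64 for Chrna9, -0.97 for Zfp593, -1.34 for Musk, -0.65 for Cd82, -1.08 for Aqp4, -1.85 for Dhrs7c, -2.64 for Ddit4l, -2.10 for Pfkfb3, -2.27 for Tnfrsf4, -3.20 for Txnl1, -2.61 for Lcn2, -2.42 for Slc25a25, -2.25 for Cd24a, -2.09 for Kbtbd8 and -2.08 for Sox7. Where a group did not detect the probe, as for 10 of the 20 genes chosen for the genotype and 8 of the 20 chosen for the day difference, the value includes background signal. All groups hold 3 samples, so no test for a single outlying sample was run.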

How the results depend on the processing

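Of 208 named genes called in the day 3 knockout comparison, 159 kept direction and call under every alternative run. Many of the list counts that moved by over 1.5 times with either median centring stand beside the results, but not all. The 4055 calls became 2253 (1291 higher, 962 lower) with the 6 arrays alone, 1671 (945, 726) with the number of detected probes as a covariate, 2086 (1183, 903) in a test against 1.2-fold, and 1933 (1094, 839) without denervated replicates 2 and 3. Median centring over all probes gave 5361 higher and 538 lower, and over the probes kept, an alternative chosen after seeing the data, 2747 lower. Without single replicates the calls ran from 3272 to 4278. The 122 genotype interactions became 17 with the 12 arrays alone, 70 with centring over the probes kept, 80 with the authors' processed values, 206 with an offset of 50, 60 without the detection filter, 70 with the mean of probes, 10 with the covariate, 2225 with array weights, 19 against 1.2-fold and 3 without denervated replicates 2 and 3. Leaving out single arrays they ran from 31 to 983. The 2332 day interactions became 1098 with the 12 arrays alone, 4742 with centring over all probes, 1084 with the covariate, 4547 with array weights, 706 against 1.2-fold and 219 without denervated replicates 2 and 3, and ran from 1420 to 3274 without single arrays. The causes were not tested. Of the counts and medians by list under the alternatives, 2468 of 3078 stayed the same. For a count this meant within 1.5 times. For a median it meant a move smaller than the standard deviation of the list medians of the 3 denervated samples. Falls of Lamb2, Ube3a, Psmb10, Pink1, Atg9a, Eif4e, Eef2k, Hspb6, Ppargc1a, Slc2a4, Pygm and Phkg1 had no call with median centring over all probes. The log2 change of the genes that follow changed sign; Hdac5 and Atp2a2 were called before the change, Bpifb1 and Myh4 were called lower with centring over the probes kept, and the others had no call. With median centring over the probes kept it was -0.312 for Trim63, -0.365 for Gsta1, -0.523 for Bpifb1, -0.151 for Meig1 and -0.378 for Myh4. With the number of detected probes as a covariate it was 0.770 for S100a9, 0.142 for Dupd1, 0.625 for Mt3, 0.449 for Mmp12, -0.0131 for Atp2a2 and -0.452 for Myh4. Without denervated knockout replicates 2 and 3 it was 0.297 for S100a9, 0.297 for Mt3, -0.151 for Txnl1 and -0.320 for Myh4. With median centring over all probes it was 0.436 for Cops8, 0.399 for Pfkfb3, 0.284 for Dupd1 and 0.0676 for Hdac5. With array weights it was 0.205 for Pfkfb3 and -0.255 for Uchl1. With the authors' processed values it was 0 for Bpifb1. With the mean of the probes of a gene it was -0.148 for Myh4. Leaving out single replicates it ran from -0.772 to 0.166 for S100a9, from -0.180 to 0.0122 for Cops8, from -0.519 to 0.194 for Pfkfb3, from -0.298 to 0.340 for Uchl1, from -0.862 to 0.193 for Mmp12 and from -0.0985 to 0.235 for Myh4. The samples were fitted unpaired. Deviations of same-numbered samples from their group means correlated at 0.0416, 0.0343 and 0.388. With 3 samples a group these values cannot settle whether the replicate numbers pair the samples. With the replicate block 3985 genes were called, and 86 and 2196 had the 2 interactions. The number of arrays limits the precision, and dim probes have only bounds.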
